A study of Drosophila melanogaster with 9 samples.

Results

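The mitochondrial respiratory chain passes electrons from NADH and succinate to oxygen through complexes I to IV and uses the proton gradient this builds to make ATP at complex V, the ATP synthase. Most of its subunits are encoded in the nucleus, translated in the cytosol and imported, and a few are encoded by mitochondrial DNA. In *Drosophila* many of the nuclear genes have a second copy with a name ending in L, and the general subunit genes described here are the ones without that suffix. Mitochondria are rebuilt during spermatogenesis, when they fuse into a large body beside the spermatid nucleus and then extend along the growing sperm tail.

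Members were the genes whose symbol starts with *ND-*, *COX*, *UQCR-*, *ATPsyn* or *Sdh*, or is *Cyt-c1* or *RFeSP*, with genes carrying the L suffix left out. The reference gene table holds 69 such genes, and 54 of them had a probe set with 1 gene symbol, out of 11981 genes measured. These were 27 of 34 genes of complex I, 4 of 5 of complex II, 6 of 8 of complex III, 7 of 11 of complex IV and 10 of 11 of complex V. The other 15 genes were not analysed here. They are *ND-23*, *ND-24*, *ND-30*, *ND-49*, *ND-AGGG*, *ND-B15*, *ND-MWFE*, *SdhA*, *UQCR-C1*, *UQCR-C2*, *COX6B*, *ATPsynG* and the mitochondrially encoded *COX1*, *COX2* and *COX3*. One member, *Sdhaf3*, was taken in by its symbol but encodes an assembly factor of complex II. Where a gene had several probe sets, the brightest by mean log2 signal stood for it.

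Adult testes of males dissected within a day of eclosion, freed of accessory glands and ejaculatory ducts, were measured on Affymetrix arrays, and each of the 3 genotypes has 3 arrays. Control testes were w; tinRNAi/+; bamGal4VP16/+, in which the germline driver bam-Gal4VP16 expresses an RNAi hairpin against *tin*, and the labels describe them as normal. Mutant testes were aly[5] red[1] e[1], homozygous for an allele of a component of the spermatocyte transcription complex tMAC, or w; Nxt1[z2-0488]/Nxt1[DG05102], which combines an amino acid substitution and a P-element insertion in an mRNA export factor. Both mutants arrest as mature primary spermatocytes, so their testes lack the meiotic and spermatid stages that control testes hold. The culture temperature was 29 °C (control), 27 °C (*aly*) and 25 °C (*Nxt1*), and the study calls the arrays it set *Nxt1* against existing. Effects of genotype and temperature cannot be told apart in these data, nor can those of genotype and array batch, should the *Nxt1* arrays have been hybridised at another time. The labels do not say that arrays of 1 genotype came from separate cultures, so the p-values speak for the spread of these arrays and no more. The gene *aly* itself had log2 signals of 6.73, 6.55 and 6.62 on control, 5.72, 5.67 and 5.85 on *aly* and 8.51, 8.59 and 8.47 on *Nxt1* arrays, lowest in the testes labelled *aly* (log2 difference from control -0.89, adjusted p = 5.1e-06 by limma). The gene *Nxt1* had 8.43, 8.45 and 8.45 on control, 9.50, 10.12 and 9.85 on *aly* and 9.66, 9.88 and 9.75 on *Nxt1* arrays, and with a substitution and an insertion as alleles its signal is no check of the labels.

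Median signals of the arrays were 107.2 to 109.5 in control, 98.39 to 100.1 in *aly* and 108.7 to 109.4 in *Nxt1* testes. On the log2 scale the median of all probe sets in *aly* differed from control by -0.12. In the markers of other tissues 2 arrays stood apart. The median log2 signal of 11 accessory gland genes was 4.81 on control array 1 and 11.23 and 11.65 on the other 2 control arrays. On *Nxt1* array 3 the yolk protein genes *Yp1* and *Yp2*, named after their values were seen, had log2 signals of 8.08 and 8.96, against 4.87 to 4.94 and 5.68 to 5.86 on the other *Nxt1* arrays. Without control array 1, 43 members were higher and 1 lower in *Nxt1* and 46 were higher and 1 lower in *aly*, and without *Nxt1* array 3, 43 were higher and 1 lower in *Nxt1*. The summed signal of the accessory gland genes ranged from 1204 to 34056 in control, 47172 to 103642 in *aly* and 54312 to 141692 in *Nxt1* testes. Spermatocyte genes, all 8 of which were measured, summed to 16426 to 17557 in control, 33062 to 35776 in *aly* and 22982 to 23295 in *Nxt1* testes. Of these 5 were higher and 2 lower in *Nxt1* and 5 were higher and 3 lower in *aly*. *Rbp4*, which encodes an RNA binding protein of spermatocytes, rose by 2.53 in *Nxt1* and 2.58 in *aly* on the log2 scale, while *bol*, which is needed for meiotic entry, fell by 2.46 and fell by 3.63. Muscle sheath genes, 8 of 12 measured, summed to 13923 to 14659 in control, 7352 to 8169 in *aly* and 5722 to 9234 in *Nxt1* testes, but 2 were higher and 2 lower in *Nxt1* and 3 were higher and 3 lower in *aly*. The muscle actin gene *Act87E*, the brightest of them in control, fell by 2.44 in *Nxt1* and by 2.37 in *aly*, and *sls*, which encodes a titin-like protein, fell by 2.74 and by 3.80, while *up*, a troponin T gene, rose by 0.73 and 1.13. Fat body genes, 6 of 8 measured, summed to 4680 to 4958 in control, 6412 to 8382 in *aly* and 1034 to 2125 in *Nxt1* testes, with 1 lower in *Nxt1* and 3 higher and 1 lower in *aly*. The lipophorin gene *apolpp*, the brightest of them in control, fell by 2.43 in *Nxt1* and by 2.07 in *aly*, while *Lsp2*, *Fbp1* and *Fbp2* rose by 4.12, 4.24 and 3.90 in *aly* and did not pass in *Nxt1*. The sums of the 5 of 7 cyst and hub cell genes that were measured were 857 to 926 in control, 1017 to 1228 in *aly* and 1141 to 1239 in *Nxt1* testes. However, 2 were higher and 2 lower in *Nxt1*, and 1 was higher and 1 lower in *aly*. Sums of 4 of 5 early germline genes were 2863 to 3264 in control, 3951 to 4146 in *aly* and 3804 to 3957 in *Nxt1* testes. Here 2 were higher and 2 lower in *Nxt1*, and 2 were higher and 1 lower in *aly*. No defining marker was at 0, since these signals have no zeros. The part of these differences in the results below was not tested.

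The question of the comparisons was how the complexes of the chain differ between control testes and the 2 arrested genotypes. General subunit genes had higher signal in both mutants than in control on the deposited scale. The summed signal of the 54 members was 218817 to 222886 in control, 370838 to 416440 in *aly* and 347324 to 356156 in *Nxt1* testes, with no overlap between control and either mutant. In *Nxt1* testes 44 members were higher than in control, 1 was lower and 9 did not pass, with a median log2 difference of 0.69 and a range from -1.26 to 1.57. In *aly* testes 48 were higher, 2 were lower and 4 did not pass, with a median of 0.85 and a range from -0.41 to 1.75. In a whole testis, fewer cells of a type and less RNA per cell cannot be told apart, and the same holds for more.

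These counts have to be read against the background of the arrays. Over all 18769 probe sets 34.1% were higher and 24.2% lower in *Nxt1*, and 44.0% were higher and 20.0% lower in *aly*, against 81.5% and 88.9% of members higher. The medians over all probe sets were -0.01 and 0.21. The members are bright, and bright probe sets behaved differently from the rest. Of 2164 probe sets with a mean log2 signal of at least 11, a range that holds 48 members, 66.8% were higher in *Nxt1* and 67.4% in *aly*, with median log2 differences of 0.73 and 0.82. The medians of the members were close to these medians of bright probe sets, and this range was chosen after the values had been seen.

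The direction also rested on the scaling of the arrays. The 43 ribosomal protein probe sets had a median log2 difference of 1.11 in *Nxt1* and 1.20 in *aly*, more than the members. With each array centred on them, 6 members were higher and 40 lower in *Nxt1* (median -0.42), and 10 were higher and 32 lower in *aly* (median -0.36). Most probe sets moved the same way. Of all 18769, 2150 were higher and 14482 lower in *Nxt1* (median -1.12), and 2487 were higher and 14191 lower in *aly* (median -0.99). The medians of the members thus stayed above those of all probe sets. Counts with ribosomal protein centring below, by complex or list, have this background. Centred on *CG3927*, the control gene of the study's q-RT-PCR, 12 were higher and 22 lower in *Nxt1* (median -0.08), and 12 were higher and 30 lower in *aly* (median -0.29). The study reports this gene as expressed only in primary spermatocytes and used it on purified spermatocyte RNA. From in situ hybridisation and microarrays, the study also judged its level in *Nxt1* and *comr* testes to be like that of wild type. On these whole-testis arrays, however, *CG3927* was itself 0.775 higher in *Nxt1* and 1.14 higher in *aly* on the log2 scale. Of all probe sets, 3158 were then higher and 12971 lower in *Nxt1* (median -0.79), and 2681 and 13905 in *aly* (median -0.93). Centring moves every member on an array by the same amount, so it leaves the differences between members and between complexes as they are. Differences below are on the deposited scale unless another is named.

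**Figure D1:**
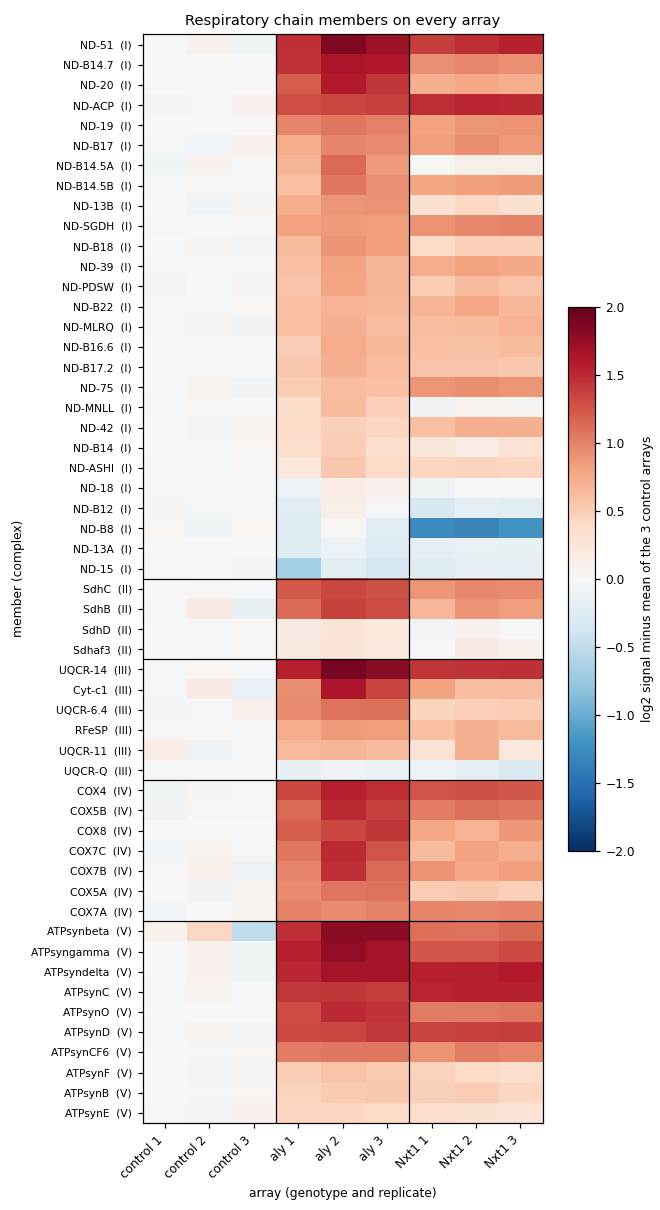
Log2 signal of each of the 54 members (rows, complex in parentheses) on each of the 9 arrays (columns), minus that member's mean over the 3 control arrays. Red is higher and blue lower, and the only deep blue cells are those of ND-B8 on the 3 Nxt1 arrays, where it was 1.26 lower.

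The complexes differed in how far they rose. Complex V had the highest median difference in both mutants, 1.08 in *Nxt1* and 1.39 in *aly*, followed by complex IV with 0.83 and 1.27. Complex I had medians of 0.61 and 0.65, complex II of 0.45 and 0.74, and complex III of 0.57 and 0.93. When each member was set to its control mean, the median of complex V was above that of complex I by 0.65 to 0.75 on the *aly* arrays and by 0.44 to 0.48 on the *Nxt1* arrays, and within -0.03 to 0.03 of it on the control arrays. The same gap for complex IV was 0.45 to 0.72 on *aly* arrays and 0.18 to 0.30 on *Nxt1* arrays. These gaps are descriptions over 10, 7 and 27 members that share arrays, no test was made of them, and no centring changes them.

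**Figure D2:**
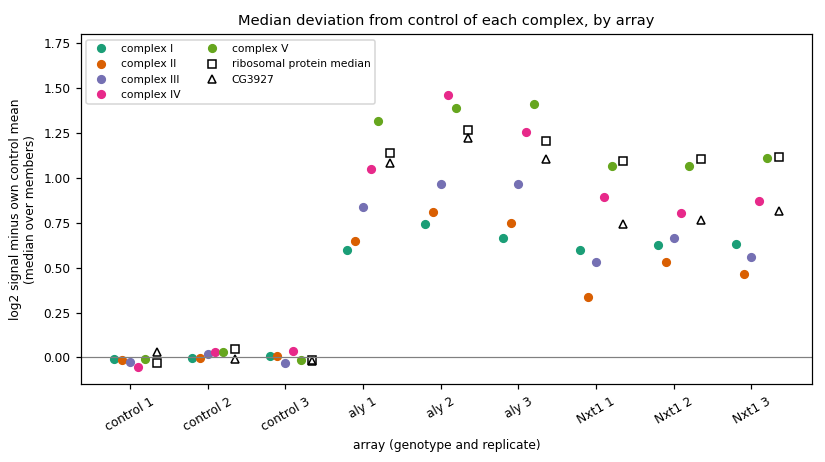
Median over the members of each complex of the log2 signal minus its control mean (y axis), on each array (x axis). Squares show the median of ribosomal protein probe sets and triangles CG3927, drawn the same way. Complex V lay highest of the 5 complexes on the Nxt1 arrays, and just below the squares there.

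Complex I, NADH dehydrogenase, has a small set of core subunits that carry the flavin and the iron-sulphur clusters and many accessory subunits around them. Of its 27 measured members 20 were higher, 1 lower and 6 did not pass in *Nxt1*, and 22 were higher, 2 lower and 3 did not pass in *aly*, but with ribosomal protein centring 2 were higher and 24 lower in *Nxt1* and 3 higher and 23 lower in *aly*. The 3 core subunits measured, *ND-20*, *ND-51* and *ND-75*, rose by 0.74 to 1.47 (median 0.90) in *Nxt1* and 0.57 to 1.67 (median 1.41) in *aly*. The other 24 members had medians of 0.56 and 0.64, with ranges from -1.26 to 1.50 and from -0.41 to 1.56. This division was made after the values had been seen, and the part of signal level was not tested.

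*ND-51* encodes the subunit that by homology to mammals binds NADH and the flavin. Its log2 signals were 10.09, 10.17 and 10.00 on control, 11.55, 11.94 and 11.79 on *aly* and 11.47, 11.57 and 11.63 on *Nxt1* arrays. Both mutants were clear of control and overlapped each other. The rise was 2.77 fold in *Nxt1* (log2 difference 1.47, SE 0.11, adjusted p = 8.56e-07) and 3.18 fold in *aly* (1.67, SE 0.11, adjusted p = 2.43e-07). With ribosomal protein centring it was 0.36 (adjusted p = 0.00352) and 0.47 (adjusted p = 0.000654).

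*ND-ACP* encodes the mitochondrial acyl carrier protein, which is both a complex I subunit and part of fatty acid and lipoate synthesis. The arrays gave log2 signals of 11.80, 11.82 and 11.94 on control, 13.14, 13.19 and 13.22 on *aly* and 13.32, 13.38 and 13.34 on *Nxt1* arrays. It had the largest rise of complex I in *Nxt1*, 2.82 fold (log2 difference 1.50, SE 0.07, adjusted p = 3.43e-08), against 2.52 fold in *aly* (adjusted p = 5.63e-08). Its other 2 probe sets rose as well, by 1.33 and 0.95 in *Nxt1*.

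*ND-75*, the largest iron-sulphur subunit, and *ND-42*, an accessory subunit, were the only members higher in *Nxt1* than in *aly* on the deposited scale. The log2 signals of *ND-75* were 10.77, 10.86 and 10.72 on control, 11.29, 11.41 and 11.38 on *aly* and 11.67, 11.72 and 11.66 on *Nxt1* arrays. The 3 genotypes did not overlap, and *Nxt1* was 1.25 fold above *aly* (log2 difference 0.33, SE 0.07, adjusted p = 0.00381). Those of *ND-42* were 12.40, 12.35 and 12.49 on control, 12.80, 12.89 and 12.84 on *aly* and 13.01, 13.14 and 13.12 on *Nxt1* arrays. It was 1.19 fold above *aly* (0.25, SE 0.07, adjusted p = 0.0158), a call lost without *Nxt1* array 2 (0.23, adjusted p = 0.0578) or without *Nxt1* array 3 (0.24, adjusted p = 0.0541). The call was also lost with centring on the median of all probe sets (0.12, adjusted p = 0.179). Against control both genes rose, by 0.90 and 0.68 in *Nxt1* and by 0.57 and 0.43 in *aly*, and all of these turned negative with ribosomal protein centring.

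*ND-B8* went the other way in *Nxt1* alone. It encodes a small accessory subunit that in mammals lies in the matrix arm, near the NADH-binding end. Its log2 signals were 10.33, 10.21 and 10.34 on control, 10.04, 10.32 and 10.06 on *aly* and 9.02, 8.97 and 9.10 on *Nxt1* arrays. Every *Nxt1* array lay below every other array, and *aly* overlapped control. The signal was 2.4 fold lower in *Nxt1* than in control (log2 difference -1.26, SE 0.09, adjusted p = 9.24e-07) and 2.16 fold lower than in *aly* (-1.11, SE 0.09, adjusted p = 5.18e-06). The difference between *aly* and control was -0.15 (SE 0.09, adjusted p = 0.181). *ND-B8* stayed lower in *Nxt1* than in control without any single array.

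*ND-13A* and *ND-15*, a pair of accessory subunits, were lower in *aly*. The log2 signals of *ND-15* were 12.40, 12.45 and 12.50 on control, 11.77, 12.24 and 12.11 on *aly* and 12.20, 12.28 and 12.27 on *Nxt1* arrays, with *aly* array 1 lowest. Its mean was 1.33 fold lower in *aly* (log2 difference -0.41, SE 0.11, adjusted p = 0.0103), and the difference in *Nxt1* was -0.20 (adjusted p = 0.171). Those of *ND-13A* were 13.44, 13.44 and 13.45 on control, 13.20, 13.33 and 13.19 on *aly* and 13.25, 13.31 and 13.29 on *Nxt1* arrays. Both mutants lay below control on every array, but only the 1.15 fold lower mean of *aly* passed (-0.21, SE 0.07, adjusted p = 0.0271), and it did not pass without control array 1, 2 or 3 (adjusted p = 0.0682, 0.059 and 0.0666) or without *aly* array 1 or 3 (0.0572 and 0.0723). With centring on the median of all probe sets the *aly* difference of *ND-13A* was -0.08 and did not pass (adjusted p = 0.321).

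A few further complex I members did not follow the rise in both mutants. *ND-18* and *ND-B12* passed in neither mutant, with differences of -0.04 and -0.24 in *Nxt1* and of 0.04 and -0.04 in *aly*. *ND-B14.5A* and *ND-MNLL* were higher in *aly*, by 0.89 and 0.49, and had differences of 0.08 and 0.02 in *Nxt1*. The direct comparison separated the mutants for both of the latter, with *Nxt1* below *aly* by 0.81 (adjusted p = 0.000217) and 0.48 (adjusted p = 0.00103) on the log2 scale. The remaining members rose in both mutants, from 0.23 for *ND-B14* to 0.94 for *ND-SGDH* in *Nxt1* and from 0.38 for *ND-ASHI* to 1.56 for *ND-B14.7* in *aly*.

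Complex II, succinate dehydrogenase, joins the tricarboxylic acid cycle to the chain. Of its 3 subunits and 1 assembly factor measured, 2 were higher in *Nxt1* and 4 in *aly* with none lower, but with ribosomal protein centring none was higher and 4 were lower in *Nxt1* and 2 in *aly*. *SdhC*, a membrane anchor, had log2 signals of 11.54, 11.56 and 11.51 on control, 12.76, 12.88 and 12.82 on *aly* and 12.41, 12.50 and 12.48 on *Nxt1* arrays. The 3 genotypes were separate, with a rise of 1.9 fold in *Nxt1* (log2 difference 0.93, SE 0.07, adjusted p = 9.97e-07) and 2.43 fold in *aly* (1.28, SE 0.07, adjusted p = 6.08e-08). *SdhB*, the iron-sulphur subunit, had log2 signals of 9.65, 9.84 and 9.52 on control, 10.79, 11.04 and 10.97 on *aly* and 10.34, 10.57 and 10.50 on *Nxt1* arrays. It rose 1.74 fold in *Nxt1* and 2.4 fold in *aly*, and *Nxt1* was below *aly* by 0.46 (SE 0.11, adjusted p = 0.00522).

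*SdhD*, the other membrane anchor, moved much less than its partner. Log2 signals of this gene were 12.49, 12.47 and 12.54 on control, 12.67, 12.78 and 12.72 on *aly* and 12.45, 12.59 and 12.50 on *Nxt1* arrays, where *Nxt1* overlapped control. It was 1.17 fold higher in *aly* (log2 difference 0.22, SE 0.07, adjusted p = 0.0217), which did not pass without control array 1 (0.22, adjusted p = 0.0634) or 2 (0.21, adjusted p = 0.0649), and the difference in *Nxt1* was 0.01 (adjusted p = 0.932). *Nxt1* was below *aly* by 0.21 (adjusted p = 0.0288), and this call was lost without *aly* array 2 or 3 (adjusted p = 0.0612 and 0.0518) or *Nxt1* array 1 or 3 (adjusted p = 0.104 and 0.081). *Sdhaf3* was 0.21 higher in *aly* (adjusted p = 0.0264) and had a difference of 0.09 in *Nxt1* (adjusted p = 0.319).

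Complex III, the cytochrome bc1 complex, passes electrons from ubiquinol to cytochrome c. Of 6 members 5 were higher in each mutant and none was lower, but with ribosomal protein centring 1 was higher and 5 lower in *Nxt1* and 1 higher and 3 lower in *aly*. *UQCR-14*, a small subunit, had the largest rise of all 54 members in *aly*. Its log2 signals were 11.30, 11.37 and 11.30 on control, 12.88, 13.22 and 13.13 on *aly* and 12.75, 12.77 and 12.79 on *Nxt1* arrays. The mutants were above control by 3.36 fold in *aly* (log2 difference 1.75, SE 0.09, adjusted p = 5.39e-08) and 2.72 fold in *Nxt1* (1.44, SE 0.09, adjusted p = 3.23e-07). *Nxt1* was below *aly* by 0.30 (adjusted p = 0.0182), which did not pass without *aly* array 3 (-0.28, adjusted p = 0.0503) or *Nxt1* array 1 (-0.29, adjusted p = 0.0545).

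*Cyt-c1* encodes the cytochrome that hands electrons to cytochrome c. Log2 signals were 10.23, 10.43 and 10.14 on control, 11.20, 11.89 and 11.61 on *aly* and 11.07, 10.88 and 10.89 on *Nxt1* arrays and the *aly* arrays were spread wider than those of control or *Nxt1*. The genotypes did not overlap, with 2.46 fold more signal in *aly* (log2 difference 1.30, SE 0.16, adjusted p = 4.49e-05) and 1.6 fold more in *Nxt1* (0.68, SE 0.16, adjusted p = 0.00447) than in control. *UQCR-Q*, a small membrane subunit, did not follow. Its log2 signals were 12.59, 12.63 and 12.63 on control, 12.47, 12.54 and 12.48 on *aly* and 12.53, 12.43 and 12.32 on *Nxt1* arrays, below control on every mutant array, with differences of -0.19 in *Nxt1* (adjusted p = 0.0546) and -0.12 in *aly* (adjusted p = 0.187). *UQCR-11*, the hinge subunit, was the only member below the median level of all probe sets, with 4.90, 4.63 and 4.71 on control arrays, and its rises of 0.41 and 0.65 start from that dim signal.

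Complex IV, cytochrome c oxidase, reduces oxygen. All 7 nuclear members measured were higher in both mutants, but with ribosomal protein centring none was higher and 4 were lower in *Nxt1* (median -0.27), and 1 was higher and 1 lower in *aly* (median 0.06). *COX4* had the largest rise of the complex. It had log2 signals of 11.44, 11.58 and 11.56 on control, 12.86, 13.08 and 13.01 on *aly* and 12.78, 12.81 and 12.77 on *Nxt1* arrays. It was 2.74 fold higher in *aly* (log2 difference 1.46, SE 0.08, adjusted p = 8.11e-08) and 2.39 fold higher in *Nxt1* (1.26, SE 0.08, adjusted p = 3.39e-07), but with ribosomal protein centring the *Nxt1* difference was 0.15 and did not pass (adjusted p = 0.0745). *COX5A* had log2 signals of 12.62, 12.54 and 12.69 on control, 13.57, 13.69 and 13.71 on *aly* and 13.12, 13.15 and 13.09 on *Nxt1* arrays. Here *Nxt1* lay between the other genotypes on the deposited scale, 1.42 fold above control (0.50, SE 0.07, adjusted p = 0.000203) and below *aly* by 0.53 (adjusted p = 0.000207). With ribosomal protein centring the differences of *COX5A* from control were -0.60 in *Nxt1* (adjusted p = 4.53e-05) and -0.16 in *aly* (adjusted p = 0.0808). With *CG3927* centring the call between the mutants was lost (-0.17, adjusted p = 0.111). *COX5B*, *COX7A*, *COX7B* and *COX8* rose by 0.78 to 1.06 in *Nxt1* and by 0.98 to 1.33 in *aly*.

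*COX7C* and *RFeSP*, the Rieske iron-sulphur protein of complex III, each had a second probe set that went the opposite way. For *COX7C* the probe set used gave 11.59, 11.73 and 11.63 on control, 12.70, 13.15 and 12.91 on *aly* and 12.28, 12.45 and 12.39 on *Nxt1* arrays, a rise of 1.65 fold in *Nxt1* (log2 difference 0.72, adjusted p = 0.000292) and 2.41 fold in *aly* (1.27, adjusted p = 3.37e-06). The other gave 12.72, 12.82 and 12.78 on control, 7.98, 8.33 and 8.01 on *aly* and 10.74, 10.64 and 10.36 on *Nxt1* arrays, so it fell by 2.19 in *Nxt1* and fell by 4.67 in *aly* on the log2 scale. In the order of the reference gene table the next gene to *COX7C* is *COX7CL*, which has no probe set of its own here, and which transcript each probe set reads was not tested. For *RFeSP* the probe set used rose by 0.66 in *Nxt1* and 0.81 in *aly*, and the other, with 8.71, 8.72 and 8.65 on control arrays, fell by 4.19 and fell by 3.55. The direction of both genes therefore depends on the probe set. The other members with more than 1 probe set moved the same way in all of them, except for a dim probe set of *COX7B* that did not pass.

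**Figure D3:**
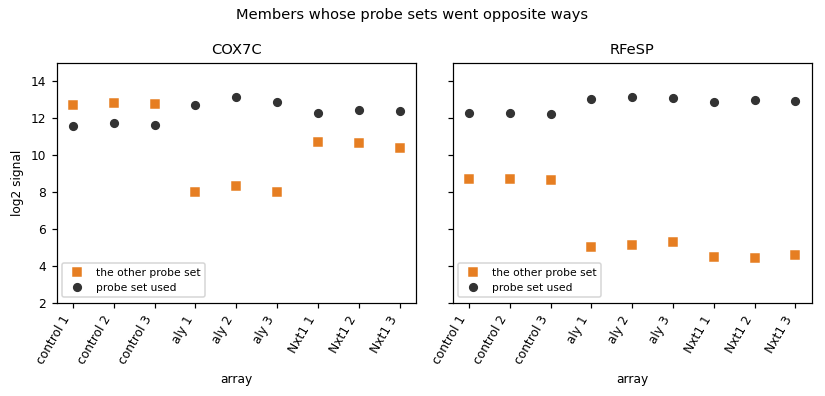
Log2 signal (y axis) of the 2 probe sets of COX7C and of RFeSP on each array (x axis), with circles for the probe set used and squares for the other. From control to aly the squares of COX7C dropped by 4.67 and those of RFeSP dropped by 3.55 while the circles rose, and only changes within a probe set can be compared.

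Complex V, the ATP synthase, has a catalytic head and a membrane rotor joined by a central and a peripheral stalk. All 10 members measured were higher in both mutants, but with ribosomal protein centring 3 were higher and 3 lower in *Nxt1* (median -0.03) and 5 were higher and 3 lower in *aly* (median 0.19). *ATPsyndelta*, of the central stalk, had the largest rise of all members in *Nxt1*. Its log2 signals were 11.49, 11.59 and 11.42 on control, 13.00, 13.16 and 13.16 on *aly* and 13.06, 13.06 and 13.09 on *Nxt1* arrays. The mutants overlapped each other and were above control by 2.97 fold in *Nxt1* (log2 difference 1.57, SE 0.08, adjusted p = 4.96e-08) and 3.05 fold in *aly* (1.61, SE 0.08, adjusted p = 2.82e-08).

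*ATPsynbeta* encodes the catalytic subunit. On the log2 scale its signals were 11.40, 11.73 and 10.81 on control, 12.78, 13.12 and 13.10 on *aly* and 12.41, 12.40 and 12.47 on *Nxt1* arrays. The control arrays spread over nearly 1 log2 unit, and both mutants were above all of them, by 3.22 fold in *aly* (log2 difference 1.69, SE 0.20, adjusted p = 3.16e-05) and 2.17 fold in *Nxt1* (1.11, SE 0.20, adjusted p = 0.000754). Its second probe set gave smaller rises, 0.53 and 0.51. *Nxt1* was below *aly* by 0.57 (adjusted p = 0.0326), a call lost without *aly* array 2 or 3 (adjusted p = 0.0845 and 0.0855) and without *Nxt1* array 1, 2 or 3 (adjusted p = 0.074, 0.0775 and 0.0648).

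Within the ATP synthase the members fell into a set that moved little and a set that moved more, a division made after the values had been seen. *ATPsynF*, a membrane subunit, had log2 signals of 13.41, 13.37 and 13.48 on control, 13.91, 14.00 and 13.94 on *aly* and 13.88, 13.81 and 13.78 on *Nxt1* arrays, a rise of 1.32 fold in *Nxt1* (log2 difference 0.40, SE 0.07, adjusted p = 0.000641) and 1.44 fold in *aly* (0.53, SE 0.07, adjusted p = 8.18e-05). *ATPsynE* and *ATPsynB*, also in the membrane part or the peripheral stalk, rose by 0.31 and 0.47 in *Nxt1* and by 0.42 and 0.50 in *aly*. The other 7 members, which include *ATPsynC* of the rotor ring, *ATPsyngamma* of the central stalk and *ATPsynD* and *ATPsynO* of the peripheral stalk, rose by 0.96 to 1.57 and by 1.04 to 1.69. The division also followed signal level. *ATPsynF*, *ATPsynB* and *ATPsynE* were the brightest of complex V in control, with mean log2 signals of 13.42, 13.25 and 13.03. The other 7 had 11.31 (*ATPsynbeta*) to 12.45 (*ATPsynCF6*), and the part of signal level or of place in the enzyme was not tested.

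**Figure D4:**
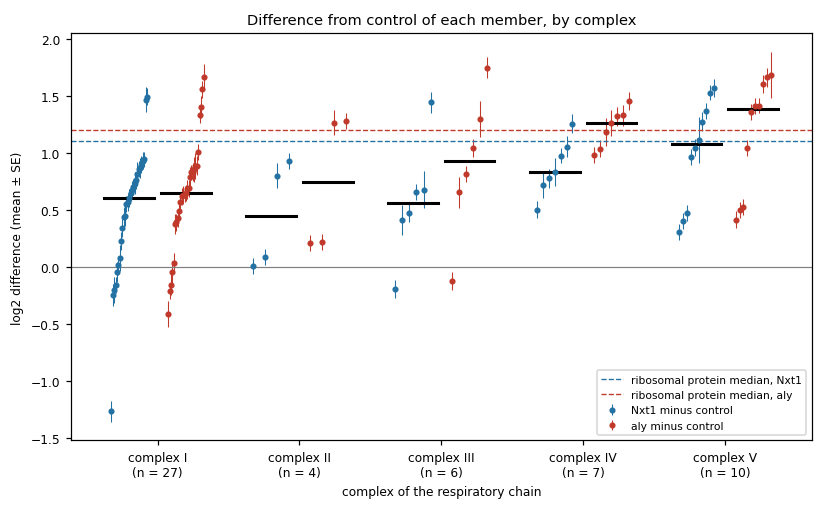
Log2 difference from control (y axis, mean and SE over 3 arrays against 3) of each member, by complex (x axis), for Nxt1 in blue and aly in red. Black bars are medians, from 0.45 to 1.08 in Nxt1 and 0.65 to 1.39 in aly, and dashed lines are the ribosomal protein medians of 1.11 and 1.20.

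The mutants were also compared with each other. On the deposited scale 2 members were higher and 21 lower in *Nxt1* than in *aly*, with 31 not passing and a median of -0.15, against 20.6% of all probe sets higher and 38.5% lower with a median of -0.18. The share of members lower, 38.9%, was near the background. Centred on *CG3927* the direction turned, with 29 members higher and 4 lower (median 0.21), and centred on ribosomal protein probe sets 6 were higher and 16 lower (median -0.06). Of all 18769 probe sets, 6956 were higher and 2513 lower with *CG3927* centring (median 0.18). With ribosomal protein centring 4255 were higher and 5117 lower (median -0.09). The medians by complex were -0.06 for complex I, -0.28 for II, -0.27 for III, -0.35 for IV and -0.09 for V, and with *CG3927* centring all 5 were above 0. Complex I had 2 members higher and 7 lower, complex II 3 lower of 4, complex III 3 lower of 6, complex IV 5 lower of 7 and complex V 3 lower of 10. The comparisons of each mutant with control share the control arrays, so no likeness between them is drawn.

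Of the 25 L paralogs 22 were measured, and most of them moved against the general genes. In *Nxt1* 17 were lower and 3 higher than in control, with a median of -2.24, and in *aly* 18 were lower and 3 higher, with a median of -5.04, the direction of both medians being the same with every centring. The shares lower were 77.3% and 81.8%, against 24.2% and 20.0% of all probe sets. Medians by complex ran from -4.98 to -2.08 in *Nxt1* and from -6.51 to -3.28 in *aly* in complexes I to IV. In complex V they were 0.54 and 0.65, with 2 of 4 paralogs higher in each mutant and 1 lower in *aly*. The higher ones were *ATPsynbetaL*, *ATPsynepsilonL* (1.08 and 1.25) and, of complex III, *Cyt-c1L* (0.26 and 0.19), named after their values were seen. With ribosomal protein centring only 1 of the 22 paralogs was higher and 20 were lower in each mutant. Between the mutants 14 paralogs were higher and 3 lower in *Nxt1*, with a median of 0.48. The share higher was 63.6%, against 20.6% of all probe sets. The median log2 signal of the paralogs was 12.52 to 12.61 in control, 7.37 to 7.69 in *aly* and 10.15 to 10.27 in *Nxt1* testes.

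Set side by side, 15 pairs of a general gene and a paralog could be compared. The difference of the general gene was above that of its paralog in 14 of 15 pairs in *Nxt1* and in all 15 in *aly*, by a median of 3.05 and 6.28 log2 units, which no centring changes. *UQCR-11L* had log2 signals of 12.94, 12.91 and 13.05 on control, 5.85, 6.81 and 6.17 on *aly* and 7.75, 7.76 and 7.59 on *Nxt1* arrays. *ATPsynCF6L*, named after its values were seen, had 13.13, 13.17 and 13.22 on control, 7.67, 7.58 and 7.28 on *aly* and 12.98, 12.78 and 12.94 on *Nxt1* arrays, so its fall of 5.67 in *aly* was met by a difference of -0.28 in *Nxt1* that did not pass. *COX5BL* fell by 6.66 in *aly* and by 2.41 in *Nxt1*, while *COX5B* rose by 1.33 and 1.06. The exception in *Nxt1* was *ATPsynbetaL*, named after its values were seen, which rose by 2.00 in *Nxt1* and 1.66 in *aly*. In *aly* the gap between *ATPsynbeta* and *ATPsynbetaL* was only 0.03. The second probe set of *ATPsynbeta* rose by 0.53 there, below the paralog. *ND-51* and *COX7A* each enter the pairs with more than a single paralog.

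**Figure D5:**
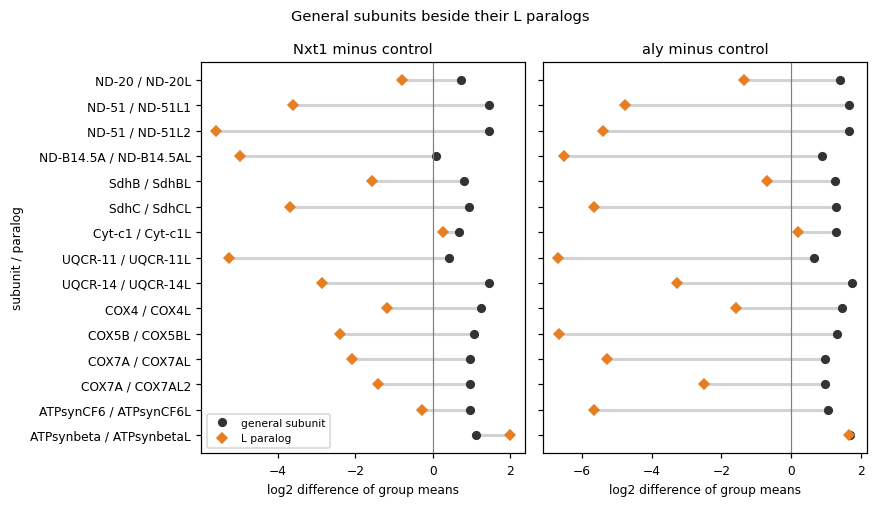
Log2 difference from control (x axis) of general subunits (circles) and their L paralogs (diamonds) for 15 pairs, in Nxt1 (left) and aly (right). Circles lie to the right of diamonds in 14 and 15 pairs, by a median of 3.05 and 6.28.

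Taken over all complexes, general genes that have an L paralog had higher median differences than those without one. The 15 with a paralog in the reference table had median differences of 0.93 in *Nxt1* and 1.28 in *aly*, and the 39 without had 0.61 and 0.65. When each member was set to its control mean, the gap between the medians was 0.28 to 0.34 on *Nxt1* arrays, 0.52 to 0.75 on *aly* arrays and -0.03 to 0.05 on control arrays. Complex I made up 24 of the 39 genes without a paralog and 3 of the 15 with one, so medians were also taken within each complex. In *Nxt1* the medians with and without a paralog were 0.74 and 0.59 in complex I, 0.86 and 0.05 in II, 0.58 and 0.23 in III and 1.02 and 0.78 in IV, but 1.04 and 1.16 in V. In *aly* they were 1.41 and 0.64 in complex I, 1.27 and 0.22 in II, 1.17 and 0.35 in III, 1.30 and 1.19 in IV and 1.37 and 1.39 in V. Genes with a paralog thus had the higher median in complexes I to IV and not in complex V. Apart from the 24 and 8 genes without a paralog in complexes I and V, these medians rest on 2 to 4 genes each, and no test was made. Genes without a paralog were *SdhD* and the assembly factor *Sdhaf3* in complex II, and *UQCR-Q* and *RFeSP* in complex III. The direction of *RFeSP*, and of *COX7C* among those with a paralog, depends on the probe set. The sets were not matched for signal level, and its part was not tested.

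Other genes of the same pathways were counted from lists. The lists share genes and are not separate support. Their counts on the deposited scale stand beside 34.1% of all probe sets higher and 24.2% lower in *Nxt1*, and 44.0% and 20.0% in *aly*. Of probe sets with a mean log2 signal of at least 6.95, 56.6% were higher in *Nxt1* and 59.5% in *aly*. A synonym alone matched the rule for 14 genes, which include the 4 measured subunits under other symbols below, 4 assembly factors (*Cox10*, *Cox11*, *Cox17* and *Sirup*), and *Sodh1* and *Sodh2*, which encode sorbitol dehydrogenases and are no part of the chain. Without the latter pair 10 of 12 were higher and 1 lower in *Nxt1* and 11 were higher in *aly*, but with ribosomal protein centring 1 was higher and 8 lower in *Nxt1* and 2 were higher and 6 lower in *aly*. Of 4 of 6 subunits and carriers with other symbols, 2 were higher and 1 lower in *Nxt1* and 3 were higher in *aly*, but with ribosomal protein centring none was higher in either mutant. *blw*, the alpha subunit of the ATP synthase, rose by 0.97 and 0.99, and *cype*, a complex IV subunit, by 0.73 and 1.02, while *ox*, of complex III, fell by 0.41 in *Nxt1* and had a difference of -0.15 in *aly*. *sun*, the epsilon subunit of the ATP synthase, rose by 0.64 in *aly* and had a difference of 0.30 in *Nxt1*.

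Of 18 assembly factors 12 were measured, 1 of which is the member *Sdhaf3*. Among the other 11, 10 were higher and 1 lower in *Nxt1* and 11 were higher in *aly*, but with ribosomal protein centring 4 were higher and 4 lower in *Nxt1* and 5 higher and 3 lower in *aly*. *ECSIT*, an assembly factor of complex I in mammals, rose by 1.34 in *Nxt1* and 2.50 in *aly*, *Sirup*, of complex II, by 0.95 and 2.37, *Surf1*, of complex IV, by 1.73 and 2.13, and *Bcs1*, which in yeast inserts the Rieske protein into complex III, by 0.84 and 1.68. *Nubpl*, which in mammals supplies iron-sulphur clusters to complex I, was named after its values were seen, and fell by 0.67 in *Nxt1* and rose by 0.47 in *aly*.

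Of 9 of 11 genes for maintaining and transcribing mitochondrial DNA, 7 were higher in *Nxt1* and 8 higher and 1 lower in *aly*, with medians of 1.68 and 1.98, but with ribosomal protein centring 5 were higher and 2 lower in *Nxt1* (median 0.57) and 5 were higher and 3 lower in *aly* (median 0.77). *mTerf3* and *mTerf5*, of the mitochondrial termination factor family, rose by 1.24 and 2.33 in *Nxt1* and by 2.44 and 2.28 in *aly*. *mTTF*, of the same family, rose by 1.79 and 2.35, and *mtTFB2*, a mitochondrial transcription factor, by 1.68 and 2.14. The gene lower in *aly* was *PolG1*, the mitochondrial DNA polymerase, named after its values were seen, which fell by 0.74 there and had a difference of 0.07 in *Nxt1*. The mitochondrially encoded members *COX1*, *COX2* and *COX3* were not analysed here. Of 9 of 14 tricarboxylic acid cycle genes, 6 were higher and 2 lower in *Nxt1* and 6 higher and 3 lower in *aly*. The share higher, 66.7% in each mutant, was near the 66.8% and 67.4% of probe sets with a mean log2 signal of at least 11. With ribosomal protein centring none of these genes was higher and 6 were lower in *Nxt1*, and 2 were higher and 5 lower in *aly*. *Idh3a* and *Idh3b*, subunits of isocitrate dehydrogenase, parted, with *Idh3a* rising by 0.92 in *Nxt1* and 1.47 in *aly* while *Idh3b* fell by 0.36 and by 1.56. *Scsalpha1*, of succinyl-CoA synthetase, rose by 0.61 and 1.52, and *mAcon1*, the mitochondrial aconitase, by 0.90 and 1.25.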

How the data were processed

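Total RNA of adult testes was measured on 9 Affymetrix arrays. The deposited values are linear signal intensity from GCOS and RMA, run by the authors in versions not given in the sources used here. RMA subtracts background, brings the arrays to 1 common distribution and reduces the probes of a set to 1 value, which assumes that the overall distribution of signal is alike between arrays. In the deposited values the medians of the *aly* arrays still lay below those of the others. The table holds 18952 probe sets, of which 183 controls were left out. Of the 18769 others, 13646 carried 1 gene symbol, 402 several and 4721 none, and the gene ID of 13543 was found in the reference gene table, used for names and gene order only.

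The log2 of each intensity was taken with a pseudocount of 0. Linear models (limma 3.58.1, lmFit and eBayes with default settings, R 4.3.3) were fitted to all 18769 probe sets and 9 arrays with 1 mean per genotype, and p-values were adjusted by Benjamini and Hochberg over all of them, with a threshold of 0.05. The script was tested on simulated data. With 3 arrays against 3 the number of arrays limits the precision. Tables were handled in pandas 2.3.3 and numpy 2.4.6 under Python 3.11.15, and figures drawn with matplotlib 3.10.9.

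Values on every array are given, in each complex, for the member with the highest mean in control and for those with the largest passing difference in each direction, and for members against their complex. Of each other list up to 4 genes with the largest absolute difference from control in either mutant are named, and others are marked as named after their values were seen. The members, the lists and the markers were chosen with earlier results of these data known. Lists were described by counts and medians, without a set test. Alternatives were 3 ways of centring arrays, a filter on dim probe sets, leaving out each array, a replicate block, eBayes with trend and robust, the mean of a gene's probe sets, leaving out probe sets whose IDs end in _s_at, _x_at or _a_at (20 members), adding 14 genes that match by a synonym (2 of them outside the chain), leaving out the assembly factor, and means on the linear scale. The range of bright probe sets, the lists without shared genes and the medians with and without a paralog within complexes were added after seeing the data.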

Additional observations from a re-analysis of the deposited data

How the results depend on the processing

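Scaling moved the results most, and the cause was not tested. The median of all probe sets became -1.12 in *Nxt1* and -0.99 in *aly* against control, and -0.09 in *Nxt1* against *aly*, with ribosomal protein centring, and -0.79, -0.93 and 0.18 with *CG3927* centring. The share of calls that were lower went from 41.5%, 31.3% and 65.1% to 87.1%, 85.1% and 54.6% and to 80.4%, 83.8% and 26.5%. With centring on the median of all probe sets (42.0%, 24.3% and 75.6%) 2 members were lower in *Nxt1*, 1 was lower in *aly* with a median of 0.97, and 1 was higher and 35 lower in *Nxt1* against *aly*, with a median of -0.29.

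With ribosomal protein centring 6 members were higher and 40 lower in *Nxt1* (median -0.42), 10 were higher and 32 lower in *aly* (median -0.36), and 6 were higher in *Nxt1* than in *aly*. With *CG3927* centring 12 were higher and 22 lower in *Nxt1* (median -0.083), 12 higher and 30 lower in *aly* (median -0.29), and 29 higher and 4 lower in *Nxt1* against *aly* (median 0.21). Differences from control that turned with ribosomal protein centring were, in *Nxt1*, *ATPsynF* -0.70, *COX5A* -0.60, *COX7C* -0.39, *Cyt-c1* -0.43, *ND-42* -0.43, *ND-75* -0.21, *SdhB* -0.31 and *SdhC* -0.18, and in *aly* *ATPsynF* -0.68, *COX5A* -0.16, *ND-42* -0.77, *ND-75* -0.63 and *SdhD* -0.98. With *CG3927* centring they were, in *Nxt1*, *ATPsynF* -0.37, *COX5A* -0.27, *COX7C* -0.054, *Cyt-c1* -0.10 and *ND-42* -0.10, and in *aly* *ATPsynF* -0.61, *COX5A* -0.10, *ND-42* -0.71, *ND-75* -0.56 and *SdhD* -0.92, and between the mutants *SdhC* 0.0066, *SdhD* 0.15 and *UQCR-14* 0.057.

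Of the 43 named member differences that passed, a further 10 kept their direction but did not pass with ribosomal protein centring, 13 with *CG3927* centring and 2 with centring on all probe sets. The latter 2 were *ND-13A* in *aly* against control and *ND-42* in *Nxt1* against *aly*. Those lost with *CG3927* centring included *ATPsynbeta*, *COX5A*, *COX7C*, *Cyt-c1* and *SdhB* in *Nxt1* against *aly*.

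The mean of all probe sets of a gene gave 4 members lower in each mutant and a median of 0.66 in *Nxt1*, and turned *COX7C* to -0.74, -1.7 and 0.96 in the 3 comparisons. Without probe sets whose IDs end in _s_at, _x_at or _a_at, which leaves fewer members, 28 were higher and 3 lower in *Nxt1* (median 0.64), 31 were higher in *aly* and 1 was higher in *Nxt1* than in *aly*, and *COX7C* read -2.19, -4.67 and 2.47. The filter on dim probe sets gave 4 lower in *Nxt1*, namely *ND-13A*, *ND-B12*, *ND-B8* and *UQCR-Q*. Trend and robust gave 3 lower in *Nxt1* (*ND-13A*, *ND-B8* and *UQCR-Q*) and 5 higher in *Nxt1* than in *aly* (*ATPsynC*, *ND-42*, *ND-75*, *ND-ACP* and *ND-SGDH*). Adding synonym matches, *Sodh1* and *Sodh2* included, gave 3 lower in *Nxt1*.

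Leaving out 1 array gave 42 to 44 higher and 1 to 4 lower in *Nxt1* (median 0.67 to 0.72), 46 to 48 higher and 1 to 3 lower in *aly* (median 0.80 to 0.93), and 1 to 3 higher and 16 to 24 lower in *Nxt1* against *aly* (median -0.18 to -0.11). The 4 came without *aly* array 2, which changes only the shared spread in that comparison. The 1 lower in *aly*, *ND-15*, came without control array 1, 2 or 3 or *aly* array 1 or 3.

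Arrays of different genotypes share only a number. Same-numbered arrays correlated from -0.23 to 0.35 in their deviations, over 0.1 in 3 of 9 pairs. With the replicate block 43 members were higher and 1 lower in *Nxt1*, 48 and 2 in *aly*, and 2 and 21 in *Nxt1* against *aly*, and no call of the named members changed. Linear means and leaving out the assembly factor moved no count past 1.5 times and no median past its spread. Only *UQCR-11* was dim.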
